A study of Mus musculus with 4 samples.

Results

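Genes for 9 peptide precursors of septal neurons were followed in RNA of mouse brain septal tissue: Sst, Nts, Cck, Npy, Vip, Gal, Tac2, Trh and Cartpt. They were taken by their symbols, with no measured value in the rule, but earlier results of these data were known when they were chosen. All 9 were among the 15409 gene rows listed for every library. There were 4 libraries from mice held in restraint for 30 min on 3 days and killed 1.5 h after the last session, 2 from mice with the genotype TCRb-/- and 2 from WT mice. TCRb stands for the T cell receptor's beta chain, without which conventional alpha-beta T cells do not form. All mice of both genotypes were restrained, and each library came from the septal tissue of 4 to 5 mice pooled, so that a replicate is a pool. The labels place replicate 1 of each genotype in experiment 1 and replicate 2 in experiment 2, as a batch. The labels name no strain, sex or age.

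A neuropeptide is made as a longer precursor protein, cut by prohormone convertases in dense-core vesicles, trimmed by carboxypeptidases and released to act on G protein-coupled receptors, often at a distance from synapses. The septum relays between hippocampus and hypothalamus. Its lateral part is rich in GABA neurons, among them groups that make somatostatin or neurotensin, and it receives peptide-containing fibres from hypothalamic and other nuclei. Peptide transcripts mark neuron types sharply, so that their level in a block of tissue follows the neurons in the block as well as the activity of each neuron. In bulk tissue, fewer cells of a type and less RNA per cell cannot be told apart.

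Many peptide genes are switched on through cyclic AMP by the factor CREB, which binds the cyclic-AMP response element, a site long known from the somatostatin promoter. The promoters of all 9 genes (250 bases before to 50 bases after the transcript start, from RefSeq, GRCm38.p6) were searched on both strands for the full element TGACGTCA, which reads the same on both strands, and for its shorter core TGACG. On the other strand the core reads as CGTCA, and it also lies within the full element. The full element was found in 2 of the 9, Sst and Cartpt, against 1.79% of 32851 promoters of the same length. The core was found in 7 of the 9, those 2 included, against 20.8% of all promoters, and was not in the windows of Npy and Tac2. In Gal it began at base 20 of the transcript and is not printed. The stretches around the other 6 sites are shown because they hold the element or core that was searched for. The capitals mark the site, each is written 5′ to 3′ along the gene, and the number is the distance of the first capital before the RefSeq transcript start. For Sst that start is base 23890844 and for Cartpt base 99900683, both downstream of the first base of the GENCODE gene models (23890958 and 99901091 on the minus strand), so that these 2 stretches lie upstream of the RefSeq transcript but within a GENCODE exon. A match is a stretch of letters only, and binding was not measured.
Sst, 48 bases before, chr16:23890874-23890903, minus strand: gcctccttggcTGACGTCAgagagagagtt
Cartpt, 112 bases before, chr13:99900777-99900806, minus strand: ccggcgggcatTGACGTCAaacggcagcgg
Vip, 79 bases before, chr10:5639128-5639154, plus strand: gatcactactgTGACGtctttcgggga
Cck, 47 bases before, chr9:121495726-121495752, minus strand: ctgctggactgCGTCAgcactgggtaa
Trh, 96 bases before, chr6:92244731-92244757, minus strand: cccggctctgcCGTCAgcgcccctgca
Nts, 166 bases before, chr10:102490569-102490595, minus strand: ttagggaagatCGTCActttccatcaa

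The libraries held 24585868 and 19988137 reads for TCRb-/- in experiments 1 and 2, and 26210790 and 22358674 reads for WT. Levels are given as CPM, counts per 1e6 reads of the library. The targeted locus, read through Trbc2, which encodes a constant segment of the beta chain, had 0 reads in both TCRb-/- libraries and 169 and 86 reads in WT. A count of 0 allows up to 3 reads, or 0.122 and 0.150 CPM in the 2 TCRb-/- libraries. Septal markers were present: 13 of 14 were listed, and they summed to between 273 and 316 CPM in the 4 libraries, Drd3 not being listed. The first principal component held 76.7% of the variance over all genes and separated the experiments. Of 7 blood and lymphocyte markers 1 was listed, Alas2, at between 2.20 and 3.74 CPM. With 2 libraries against 2, an exact permutation test of 1 gene cannot give a p below 0.333, so all tests are from limma fitted over 13912 genes, with a Benjamini-Hochberg adjusted threshold of 0.05. Differences are in log2(CPM + 1), a scale on which changes of low genes come out too small.

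Levels of the precursors. Somatostatin was the most abundant of the 9 per length in each of the 4 libraries, and vasoactive intestinal peptide the least. Levels between genes are compared as CPM per kb of exonic sequence. Sst, which encodes the inhibitory peptide of a class of GABA neurons, stood at 256 ± 25.5 CPM per kb (SD over all 4 libraries), above 98.9% of the genes ranked. Npy, the precursor of neuropeptide Y, an abundant peptide of forebrain interneurons, followed at 114 ± 38.0. Sst lay above Npy in all 4 libraries and their ranges did not meet. Next came Gal (galanin) at 64.6 ± 33.8, Nts (neurotensin) at 53.1 ± 7.11, Cck (cholecystokinin) at 44.2 ± 8.82, Cartpt (cocaine- and amphetamine-regulated transcript) at 35.0 ± 6.81, Trh (thyrotropin-releasing hormone) at 29.1 ± 16.6 and Tac2 (neurokinin B) at 21.0 ± 5.74 CPM per kb. From Npy to Tac2 each neighbour overlapped the next in range. Vip was apart from all of them at 1.76 ± 0.903 CPM per kb, above 26.1% of the genes ranked. With the longest annotated transcript as the length, Cck stood at 72.2, above Gal and Nts, and Tac2 at 33.9, above Trh, while Sst and Npy kept the first places and Vip the last at 2.36.

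The genes lie on 6 chromosomes of GRCm38 and all are annotated as protein coding. Sst is on chromosome 16 from 23889573 to 23890958, Cck on chromosome 9 from 121489824 to 121495694, Gal on chromosome 19 from 3409915 to 3414544 and Cartpt on chromosome 13 from 99898489 to 99901091. Npy (49822710 to 49829507) and Trh (92242061 to 92244650) share chromosome 6. Vip (5639218 to 5647617), Nts (102481756 to 102490486) and Tac2 (127724478 to 127731768) share chromosome 10. The pair on chromosome 6 did not have the same pattern over the libraries, as the values below show.

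The 9 precursors together took 503 and 563 CPM in TCRb-/- of experiments 1 and 2, and 497 and 611 CPM in WT. Within that sum, per length, Sst made up 45.7% and 38.4% in TCRb-/- and 40.4% and 40.9% in WT. The share of Gal was 5.74% and 6.28% in the libraries of experiment 1 and 15.6% and 13.5% in those of experiment 2. The share of Npy went the other way, from 23.0% and 25.6% in experiment 1 to 10.5% and 15.4% in experiment 2.

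**Figure D1:**
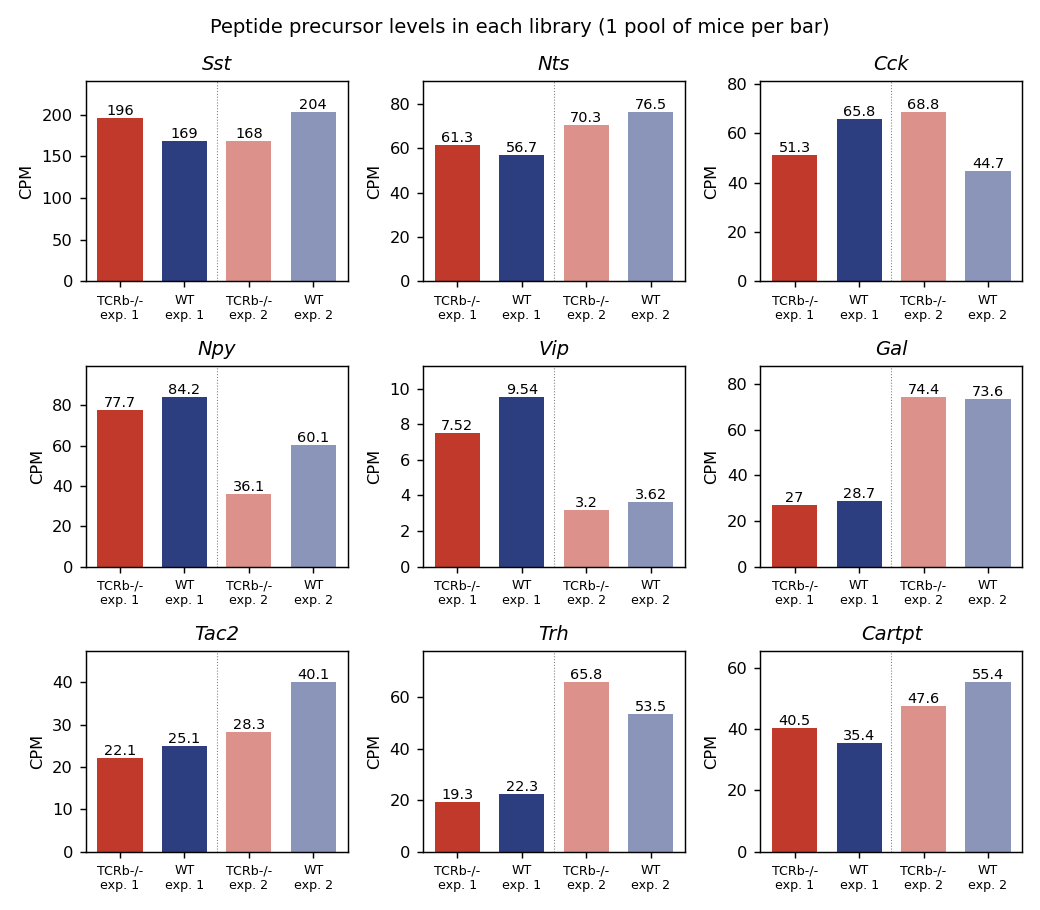
Level of each of the 9 precursors in CPM (bars from 0, each panel with its own scale), 1 bar per library, with TCRb-/- in red and WT in blue and experiment 2 in the paler shade. Gal and Trh are high in both libraries of experiment 2, Npy and Vip in both of experiment 1, and no gene separates the genotypes.

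Genotype. No precursor passed the threshold between TCRb-/- and WT, with the experiment as a block or without. Without a block, the spread within a genotype also holds the difference between experiments. Each of the 9 had overlapping genotypes, while 17.8% of the genes tested did not overlap (8.04% with TCRb-/- the lower). For the 7 precursors whose experiments did not overlap, this outcome was fixed, because each experiment held a library of each genotype. In limma 0 of the 9 passed the adjusted threshold, where the background was 0% of 13912 genes (43 genes, or 0.309%, had an unadjusted p under 0.05, and none of them was a precursor). With the experiment as a block 0 of the 9 passed, against 0.0144% of all genes. In that limma fit 2 of the 9, Npy and Tac2, had an unadjusted p under 0.05, against 5.64% of all genes. The estimates ran from -0.42 for Npy to 0.13 for Cck, with a median of -0.03.

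Npy and Tac2 had the largest differences. Npy had 77.7 and 36.1 CPM in TCRb-/- of experiments 1 and 2, and 84.2 and 60.1 CPM in WT. It was the lower one in TCRb-/- within each experiment, by -0.11 and -0.72, but the genotypes overlapped because experiment 1 was higher in both. The estimate was -0.42 (SE 0.38, 95% interval -1.38 to 0.55). With the experiment as a block its unadjusted limma p was 0.0143, as for 5.64% of all genes at a p under 0.05, and the adjusted p was 0.848. Its lowest library, TCRb-/- replicate 2, was also the lowest in summed striatum markers (806 CPM, against 1867 to 3674 in the others). The 13 striatum genes all had lower estimates in TCRb-/-, and none was called. Their median difference, TCRb-/- minus WT, was 0.16 within experiment 1 and -1.17 within experiment 2. The part of such tissue in the Npy difference was not tested.

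Tac2 encodes neurokinin B, a tachykinin made in the habenula, the amygdala and the bed nucleus next to the septum. It had 22.1 and 28.3 CPM in TCRb-/- and 25.1 and 40.1 CPM in WT. The lower value in each experiment was again that of TCRb-/-, at -0.18 and -0.49. The estimate was -0.33 (SE 0.26, interval -0.998 to 0.33), with an adjusted p of 0.848 in limma with the block and an unadjusted p of 0.0167. Without WT replicate 2, its highest library, the difference was -0.0040.

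Vip was the third gene with 1 sign in both experiments, at -0.31 and -0.14. For the other 6 genes the sign turned between experiments, where 51.6% of all genes kept it. Cck turned most: it was lower in TCRb-/- in experiment 1 (51.3 against 65.8 CPM) and higher in experiment 2 (68.8 against 44.7 CPM), differences of -0.35 and 0.61. In experiment 1 Sst was at 196 CPM in TCRb-/- and 169 CPM in WT, and in experiment 2 at 168 and 204 CPM. With 1 library of each genotype in an experiment, these turns were not tested.

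The precision differed widely between genes. For Sst the interval of the genotype difference was -0.42 to 0.36, and for Nts -0.47 to 0.47. For Gal (-1.57 to 1.50) and Trh (-1.61 to 1.70) it was wider, and both genes differed between experiments. With the experiment as a block the intervals were -0.23 to 0.16 for Gal, -0.24 to 0.34 for Trh, -0.20 to 0.20 for Nts and -0.28 to 0.23 for Sst. In that fit those of Npy (-0.72 to -0.11) and Tac2 (-0.59 to -0.08) lay wholly on the negative side. With 1 library of each genotype in an experiment, the variance in that fit is largely borrowed from other genes. The intervals thus do not show that the pools agreed. Npy differed by -0.11 within experiment 1 and by -0.72 within experiment 2, near the ends of its interval. The intervals of both fits are not adjusted for the number of genes tested.

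**Figure D2:**
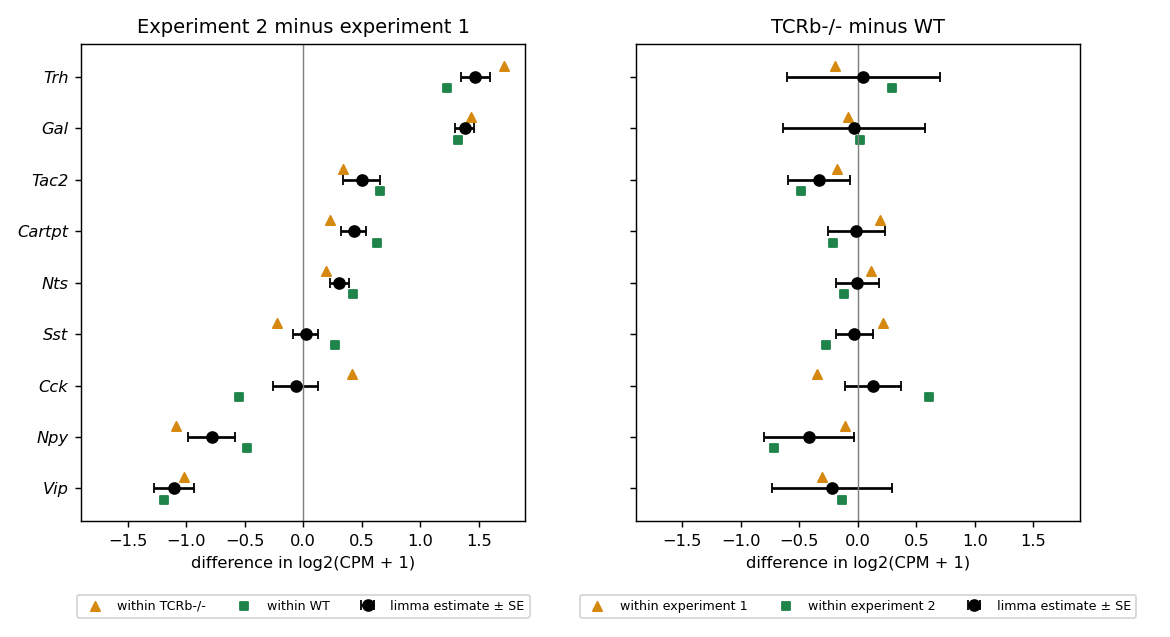
Differences in log2(CPM + 1) for each precursor between experiments (left) and between genotypes (right), with the limma estimate and its SE as a black point and bar, and the difference within each genotype or within each experiment as coloured symbols. On the left the estimates of Trh and Gal are 1.47 and 1.38, with both genotypes above 1.2, and on the right they are 0.05 and -0.04.

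Experiment. The differences that passed the test lay between the experiments: Gal, Trh, Cartpt and Nts were higher in experiment 2, and Npy and Vip were lower. That is 6 of 9 past the threshold in limma, 4 higher and 2 lower, against 23.7% of all 13912 genes tested (8.95% higher and 14.7% lower). The experiments did not overlap for 7 of the 9, near the background of 67.3%. The median difference of the 9 was 0.31, and that of all genes -0.03.

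Galanin showed the tightest difference. Gal had 27.0 and 28.7 CPM in TCRb-/- and WT of experiment 1, and 74.4 and 73.6 CPM in experiment 2, with counting intervals (exact, 95%) that met within each experiment and not between them. Both libraries of experiment 2 were thus high and the genotypes were alike. The level rose 2.66-fold, a difference of 1.38 (SE 0.08, limma adjusted p 0.00116).

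Trh is the hypothalamic releasing hormone that acts on the pituitary and also a transmitter in the septum and elsewhere in the forebrain. It had 19.3 and 22.3 CPM in TCRb-/- and WT of experiment 1, and 65.8 and 53.5 CPM in experiment 2. Its ranges were apart, and it rose 2.87-fold, by 1.47 (SE 0.12, adjusted p 0.00240 in limma). Per length, Gal stood above Trh in every library, with ratios of Gal to Trh of 2.45 and 1.99 in TCRb-/- and 2.26 and 2.41 in WT.

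Cartpt, whose peptide acts in feeding and stress circuits, had 40.5 and 35.4 CPM in experiment 1 and 47.6 and 55.4 CPM in experiment 2, TCRb-/- first. Nts, whose peptide marks a group of lateral septal neurons, had 61.3 and 56.7 CPM in experiment 1 and 70.3 and 76.5 CPM in experiment 2. Both were higher in experiment 2 in either genotype, but far less than Gal and Trh. Cartpt rose by 0.43 (SE 0.11, adjusted p 0.0248 in limma) and Nts by 0.31 (SE 0.08, adjusted p 0.0302). Neither call held throughout: without WT replicate 1 the adjusted limma p was 0.107 for Cartpt and 0.116 for Nts, and without WT replicate 2 it was 0.0687 and 0.108. Nts was also at 0.0542 without TCRb-/- replicate 1.

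Vip and Npy went the opposite way. Vip marks a class of cortical and hippocampal interneurons that inhibit other interneurons. It had 7.52 and 9.54 CPM in TCRb-/- and WT of experiment 1, from 185 and 250 reads, and 3.20 and 3.62 CPM in experiment 2, from 64 and 81 reads. The exact 95% counting intervals of the libraries of experiment 1 (6.48 to 8.69 and 8.39 to 10.8 CPM) lay above those of experiment 2 (2.47 to 4.09 and 2.88 to 4.50 CPM). The level was 2.50-fold lower in experiment 2, a difference of -1.10 (SE 0.17, adjusted p 0.00697 in limma).

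Npy was lower in experiment 2 in both genotypes, by -1.09 in TCRb-/- and -0.48 in WT, with TCRb-/- replicate 2 the lowest library at 36.1 CPM. The estimate was -0.78 (SE 0.20, adjusted p 0.0277 in limma), 1.68-fold lower. Without TCRb-/- replicate 2 the difference was -0.42 and still passed (adjusted limma p 0.0145), and without WT replicate 2 it was -1.14 (1.1e-06). The call was lost without TCRb-/- replicate 1 (-0.84, 0.0796) or WT replicate 1 (-0.73, 0.110).

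Tac2, Sst and Cck did not pass. Tac2 had both libraries of experiment 2 above both of experiment 1, with a difference of 0.50 (SE 0.16) and an adjusted limma p of 0.0561, or 0.0163 with genotype as a term. Single libraries moved it both ways: without TCRb-/- replicate 2 the difference was 0.75 (adjusted limma p 0.00179), without WT replicate 2 it was 0.25 (0.202), without TCRb-/- replicate 1 it was 0.41 (0.208), and without WT replicate 1 it was 0.59 (0.0994). Sst differed by 0.02 (SE 0.11, interval -0.23 to 0.27) and Cck by -0.07 (SE 0.19, interval -0.51 to 0.38). Both had overlapping experiments, and their sign between experiments was not the same in the 2 genotypes.

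Tissue and length values that moved with these differences are as follows. The gene lists for neighbouring regions were summed in each library. Cortex and hippocampus markers, 12 of 12 listed, summed to 455 and 536 CPM in experiment 1 and 192 and 232 CPM in experiment 2 (TCRb-/- first), and 7 of the 12 fell, beside 14.7% of all genes. They were thus lower in the same libraries as Vip and Npy. Striatum markers, 13 of 13 listed, summed to 3674 and 3293 CPM in experiment 1 and 806 and 1867 CPM in experiment 2, and 12 of 13 fell, beside the same 14.7%.

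Choroid plexus and ependyma markers, 12 of 12 listed, summed to 1440 and 807 CPM in experiment 1 and 4902 and 2903 CPM in experiment 2. Most of this was Ttr, with 1204 and 638, then 4478 and 2591 CPM. Of the 12, 7 rose, beside 8.95% of all genes. All 12 had higher estimates in TCRb-/-, and 1 was called by genotype, only with the experiment as a block. Thalamus and habenula markers, 11 of 12 listed, summed to 1271 and 1362, then 1613 and 1419 CPM, and 6 of the 11 tested rose, beside 8.95% of all genes. Interneuron markers, 14 of 14 listed, summed to 1888 and 2123, then 2519 and 2502 CPM, but 2 of the 14 rose and 1 fell, with a median of 0.04. Calb2, the calretinin gene and 1 of the 2 that rose, went from 330 and 312 CPM to 912 and 657 CPM. Septum markers, 13 of 14 listed, summed to 273 and 277, then 316 and 299 CPM, and 2 of the 13 tested rose and 1 fell. The sums for astrocytes (2212 to 2442 CPM), oligodendrocytes (8884 to 10566 CPM) and microglia (126 to 140 CPM) overlapped between experiments.

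Markers of hypothalamus and preoptic area moved with Gal and Trh through 2 genes. Of 15 markers 7 were listed, and Nkx2-1, Hcrt, Pmch, Kiss1, Rax, Nr5a1, Hmx2 and Hmx3 were not. The sum was 106 and 131 CPM in experiment 1 and 316 and 255 CPM in experiment 2. Without Oxt and Avp the other 5 summed to 83.7 and 100.3 CPM in experiment 1 and 83.8 and 101 CPM in experiment 2, most of it from Lhx6 (at least 75.9 CPM in each library), which also stands on the interneuron list. The 3 genes of the list that averaged under 1 CPM differed in direction and rested on 3 to 37 reads per library. Otp was at 0.325 and 0.687 CPM in experiment 1 and 1.85 and 1.07 CPM in experiment 2, and Sim1, like Otp a factor of oxytocin and vasopressin neurons, at 0.163 and 0.114 CPM in experiment 1 and 1.05 and 0.805 CPM in experiment 2. Agrp was at 0.610 and 0.458 CPM in experiment 1 and 0.300 and 0.447 CPM in experiment 2. None of these 3 passed the filter, so none was tested. The part of tissue from these regions in the precursor differences was not tested.

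**Figure D3:**
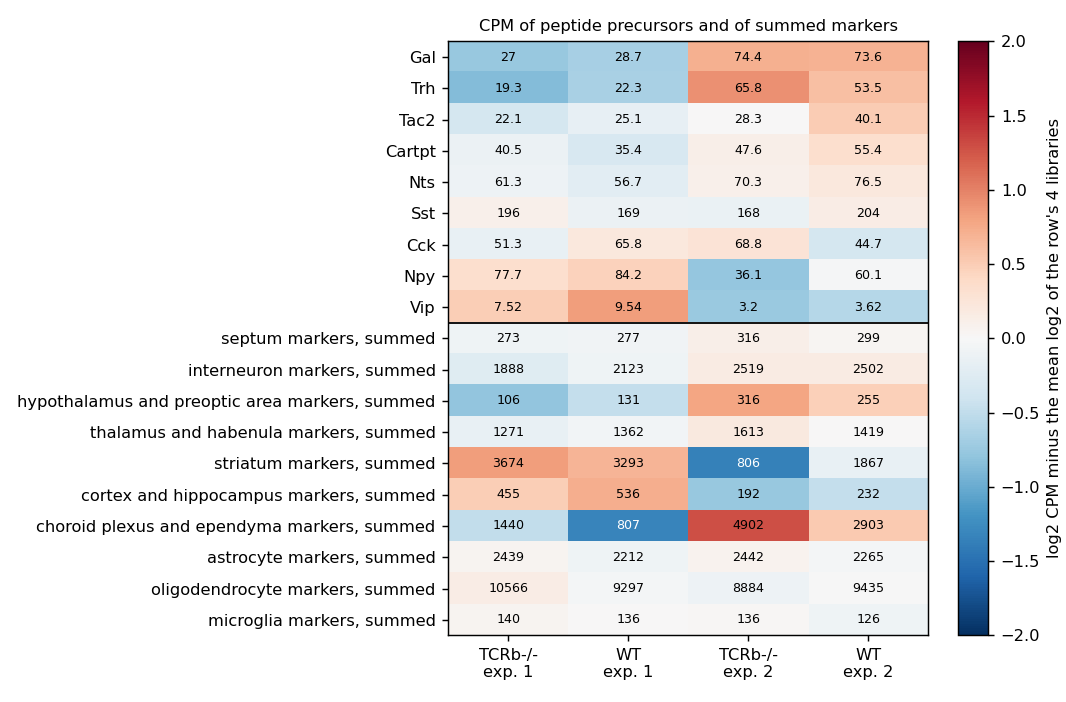
Level of each precursor and summed level of each marker list (rows) in the 4 libraries (columns). The printed numbers are CPM, and the colour gives the log2 CPM minus the mean log2 of the row. Gal, Trh and the choroid plexus and hypothalamus lists are high in experiment 2, the hypothalamus list through Oxt and Avp. Npy, Vip and the striatum and cortex lists are high in experiment 1.

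Exonic length also moved with the experiment. Over 13552 genes with a length, the difference between experiments had a Spearman rho of -0.398 with length, a description across genes that share the 4 libraries. Precursor genes are short: 8 of the 9 had between 0.566 and 1.38 kb of exonic sequence, and Vip had 3.40 kb. Of the genes tested with 0.5 to 1 kb, 30.2% were called higher and 1.05% lower in experiment 2, and of those with 1 to 2 kb, 22.2% and 3.07%. The median difference in those classes was 0.23 and 0.18, so that Nts and Cartpt lay nearer to the genes of their length than Gal and Trh did. Npy is in the shortest of these classes and was called lower. The part of length was not tested.

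Patterns most like each precursor. For each of the 9, the gene with the smallest root mean square difference in log2(CPM + 1), each gene centred on its mean over the 4 libraries, was found among all genes tested. With 4 libraries this measure describes a pattern coarsely. The nearest to Sst was Aph1a at 0.011, to Cartpt Hpgds at 0.016, to Nts Ly6g6f at 0.017, to Cck Spag4 at 0.030, to Npy Strip2 at 0.031, to Vip Dkkl1 at 0.034 and to Tac2 Spdya at 0.039. Gal and Trh had no gene as near. The nearest to Gal was Cdhr2 at 0.107 and the nearest to Trh was Gnmt at 0.112, while Gal and Trh were 0.115 from each other. Cdhr2 and Gnmt were low genes, as were Ly6g6f, Dkkl1 and Spdya. Gal and Trh also varied most of the 9 around their own means (root mean square 0.69 and 0.75, against 0.12 for Sst). Among the precursors themselves the closest pair was Nts and Cartpt at 0.074.

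Receptors. The receptors of these peptides were measured alongside. Of 25 receptor symbols 20 were listed and 19 tested, and Npy4r, Ppyr1, Galr2, Galr3 and Tacr2 were not listed. None was called by genotype in limma, and the estimates ran from -0.33 (Tacr3) to 0.35 (Galr1). Between experiments 6 of 19 were called, 1 higher and 5 lower, beside the 23.7% of all genes, with a median of -0.06. The direction of that median rested on the scaling, since under quantile normalization it was 0.03.

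The cholecystokinin receptors went opposite ways. Cckar, the type A receptor, had 5.25 and 4.43 CPM in TCRb-/- and WT of experiment 1 and 9.71 and 9.08 CPM in experiment 2. It rose by 0.84 (SE 0.15, adjusted p 0.00995 in limma). Cckbr, the main brain type, had 23.6 and 24.6 CPM in experiment 1 and 10.2 and 13.5 CPM in experiment 2, a difference of -0.97 (SE 0.14, adjusted p 0.00663). Their ligand gene Cck overlapped between experiments, as given above.

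Of the neurotensin receptors, Ntsr2, which is common in astrocytes, was the most abundant receptor per length (58.2 CPM per kb on average). It had 188 and 149 CPM in experiment 1 and 192 and 197 CPM in experiment 2, a difference of 0.22 (SE 0.11, adjusted limma p 0.166). Sort1, the sorting receptor sortilin that also binds neurotensin, had 108 and 113 CPM, then 54.3 and 67.7 CPM, and fell by 0.86 (adjusted p 0.00501 in limma). Ntsr1 stood between 3.62 and 4.96 CPM in the 4 libraries.

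Of the somatostatin receptors, Sstr2 was the most abundant per length (12.3 CPM per kb on average), with 29.1 and 27.2 CPM in experiment 1 and 26.3 and 22.7 CPM in experiment 2, which did not pass (adjusted limma p 0.208). Sstr4 had 3.25 and 4.04 CPM, then 1.55 and 0.805 CPM, and fell by 1.11 (adjusted p 0.0138). Sstr1, Sstr3 and Sstr5 stood between 5.45 and 10.7 CPM and did not pass. The receptor that fell was thus the least abundant of the 5 per length, at 1.69 CPM per kb on average.

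Vipr1, a receptor of vasoactive intestinal peptide, had 7.20 and 5.65 CPM in experiment 1 and 1.10 and 2.86 CPM in experiment 2, and fell by 1.37 (SE 0.28, adjusted p 0.0151 in limma). Its ligand gene Vip was lower in the same libraries. Vipr2 stood between 2.14 and 3.10 CPM and did not pass. Tacr1, the substance P receptor, fell from 13.0 and 13.6 CPM to 8.10 and 8.05 CPM (adjusted p 0.0119), while Tacr3, the neurokinin B receptor, had 7.28 and 9.19 CPM, then 7.20 and 9.53 CPM.

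Of the receptors of galanin, thyrotropin-releasing hormone and neuropeptide Y that were tested, none passed between experiments. Galr1, a galanin receptor, had 5.21 and 3.74 CPM in experiment 1 and 6.55 and 5.10 CPM in experiment 2 (0.32, SE 0.19, adjusted p 0.255 in limma). Trhr, the main receptor of thyrotropin-releasing hormone, had 8.46 and 10.9 CPM, then 9.86 and 8.59 CPM (adjusted p 0.825). Trhr2 was under 1 CPM on average and was not tested. The neuropeptide Y receptors Npy1r, Npy2r and Npy5r had differences of -0.08, -0.02 and -0.04, none of which passed.

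**Figure D4:**
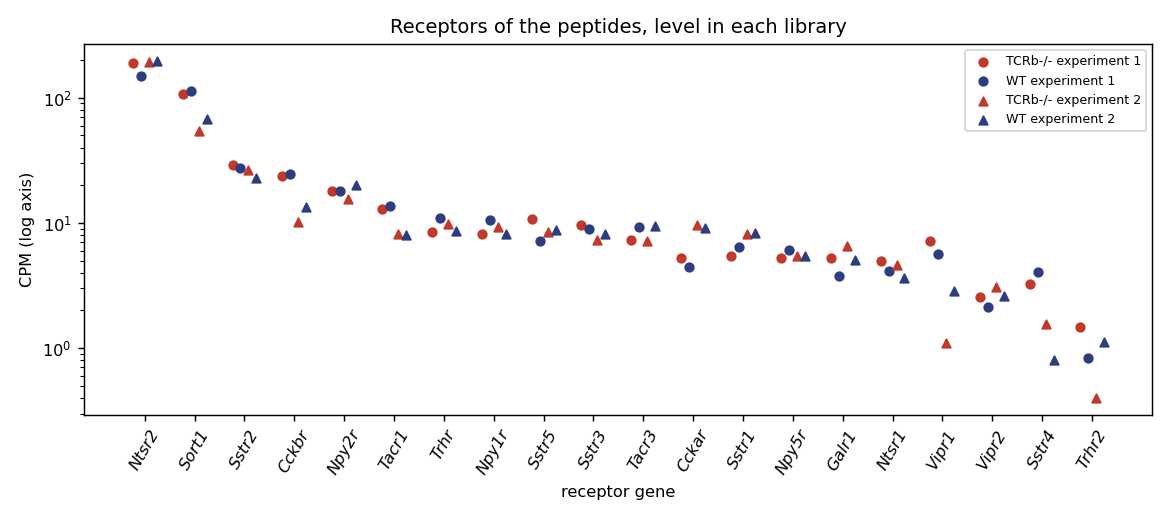
Level of each listed receptor gene in CPM (log axis) in the 4 libraries, red for TCRb-/- and blue for WT, circles for experiment 1 and triangles for experiment 2. Of the 6 receptors called between experiments, circles lie above triangles for Sort1, Cckbr, Tacr1, Vipr1 and Sstr4 and below them for Cckar.

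Processing and breakdown. Of the machinery that cuts and packs precursors, 0 of 22 genes were called by genotype in limma, with a median of 0.06. Between experiments 2 were called higher and 5 lower of the 22, beside 23.7% of all genes, with a median of 0.08. Cpe, the carboxypeptidase that trims cut peptides, had the highest level per length of the list and was at 1993 and 1751 CPM in experiment 1 and 2111 and 1966 CPM in experiment 2 (adjusted limma p 0.339). Pcsk2, a prohormone convertase, had 124 and 127 CPM, then 94.9 and 86.1 CPM, and fell by 0.47 (SE 0.07, adjusted p 0.00752). Pcsk1n, the next highest per length, encodes the inhibitor proSAAS of the convertase PC1. It had 612 and 552 CPM, then 869 and 823 CPM, and rose by 0.54 (SE 0.08, adjusted p 0.00598).

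Furin, a convertase of the constitutive route, fell from 21.8 and 21.3 CPM to 15.0 and 13.8 CPM, and Ptprn2, a dense-core vesicle protein, from 16.2 and 16.8 CPM to 11.2 and 11.4 CPM (adjusted p 0.0134 and 0.0194 in limma). Both genes have over 8 kb of exonic sequence, a class in which 28.6% of genes were called lower. Of the peptide-degrading enzymes, 10 of 12 were listed, 9 tested and 2 called, both lower in experiment 2, a share near the 23.7% called (14.7% lower) of all genes. They were Mme, the peptidase neprilysin, with 16.8 and 13.6 CPM, then 4.80 and 7.47 CPM (-1.20, adjusted p 0.00860), and Ece1 (-0.53, adjusted p 0.0248). Thop1 and Ece2, with the highest levels per length of the list, did not pass (adjusted p 0.138 and 0.440 in limma).

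Other precursors. Of 42 further genes for secreted precursors 28 were listed and 25 tested. None was called by genotype in limma (median 0.03). Between experiments 11 were called higher and 4 lower, beside 8.95% and 14.7% of all genes, with a median of 0.29, close to the 0.31 of the 9 followed here. Oxt and Avp, for oxytocin and vasopressin, had the largest differences. Oxt had 16.5 and 21.3 CPM in experiment 1 and 129 and 95.9 CPM in experiment 2, a rise of 2.51 (SE 0.16, adjusted p 0.00156 in limma). Avp had 5.74 and 9.19 CPM, then 104 and 57.8 CPM, a rise of 3.24 (SE 0.28, adjusted p 0.00255). Both exceeded the rises of Gal and Trh in size.

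Penk, the enkephalin precursor and the most abundant of these genes per length, was lower in experiment 2 (-1.20, SE 0.34, adjusted p 0.0393 in limma), with the lowest level, 325 CPM, in TCRb-/- replicate 2. That library also had the lowest striatum sum given above. Cbln1, a synapse organiser on the same list, rose by 1.29 (adjusted p 0.00801).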

How the data were processed

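RNA of pooled septal tissue was sequenced in 4 libraries. Per the labels' protocols, tissue was homogenised, cleared by centrifugation and treated with detergent before extraction. The submitters' processing notes name HISAT2 2.1.0, SAMtools 1.3, HTSeq 0.9.1, R 4.0.5, limma 3.46.0 and mm10. No gene model or row filter is named there.

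The deposited values were log2 CPM with an offset added. Whole reads were recovered for 100% of values within 0.001 reads. The 17 ERCC spike-in rows were left out of tests. The 13912 genes averaging 1 CPM or more were tested as log2(CPM + 1) with limma 3.58.1 in R 4.3.3 (empirical Bayes with a mean-variance trend, two-sided, Benjamini-Hochberg), without a block. The fit was tested on simulated data in which only the compared groups differed. That test does not cover a genotype fit in which the experiments differ too. Python 3.11.15 was used elsewhere. Lengths are the union of GENCODE M21 exons. Exact counting intervals and the 3-read limit cover counting error only. The limma p-values and intervals rest on the spread between pools, moderated towards a trend over all genes. With 4 libraries, much of the variance used for a gene is thus borrowed from other genes.

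The numbers pair the libraries, since the labels give the number as the experiment. Deviations of same-numbered libraries from their genotype mean correlated at 0.72 across genes. Replicates differed beyond sampling noise (chi-square divided by its degrees of freedom, 53.0 for TCRb-/- and 30.7 for WT).

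The 9 genes and all lists were chosen with earlier results of these data known. Named were the 9, every listed receptor, and from each other list up to 4 called genes with the largest difference between experiments and the 2 with the highest level per length, plus the most similar gene to each of the 9. Sim1, Otp, Agrp, Lhx6, Calb2 and Alas2 are named with their values already known. The alternatives changed the pseudocount (0.1, 5), the low-level filter (none, 10 CPM), the scaling (quantile, median-of-ratios), the trend (none), the weights (voom), the block or genotype term, or left out 1 library.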

Additional observations from a re-analysis of the deposited data

How the results depend on the processing

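The design named the experiment as a block and genotype as a term as alternatives, and did not list the others. With all libraries, 79 of 80 genotype and 74 of 80 experiment differences of the precursors kept direction and side of the threshold. Gal, Trh and Vip passed between experiments in every setting, single libraries left out included (highest limma adjusted p 0.0444, without a trend). Without a trend Nts (0.0907), Npy (0.0953) and Cartpt (0.0794) did not pass, and Tac2 passed with median-of-ratios (0.0479), quantile scaling (0.0354) or genotype as a term (0.0163). Nts by genotype changed sign under quantile normalization (0.0012). Vip, at 5.97 CPM, has no value under the 10 CPM filter.

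With the replicate block 2 genes were called by genotype, against 0 without it. Neither was a precursor and 1 was a choroid plexus and ependyma marker. No gene of the receptor, processing, degrading or other precursor lists was called by genotype either way. Between experiments 629 genes were called without a trend. Of those 629, 20.7% were higher. The share of higher calls among the 3292 of the main setting was 37.8%, and 50.6% with quantile normalization. The genotype median of the receptors was -0.031 with pseudocount 0.1, -0.021 with 5, -0.050 without a filter, -0.098 at 10 CPM, -0.031 with median-of-ratios, -0.034 with quantile normalization and -0.024 with voom. For other precursors it was 0.0061 with pseudocount 0.1. Between experiments the receptor median was -0.43 at 10 CPM and 0.026 with quantile normalization, and that of other precursors 0.24 with pseudocount 5, 0.38 with quantile normalization and 0.33 with voom. The cause was not tested.

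Leaving out 1 library leaves a lone pool, assumed to vary like the others, and unbalances the experiments. Calls by genotype then ranged from 0 to 47 (47 without TCRb-/- replicate 1) and between experiments from 1406 to 3390. By genotype the differences ranged from -0.16 to 0.10 for Sst, -0.22 to 0.21 for Nts, -0.14 to 0.40 for Cck, -0.96 to 0.13 for Npy, -0.82 to 0.37 for Vip, -0.75 to 0.68 for Gal, -0.81 to 0.91 for Trh, -0.66 to -0.0040 for Tac2 and -0.33 to 0.30 for Cartpt. Between experiments Sst ranged from -0.12 to 0.16 and Cck from -0.37 to 0.24. Genotype medians ranged from -0.095 to 0.15 for receptors, 0.050 to 0.11 for processing, -0.017 to 0.13 for degrading enzymes and -0.21 to 0.15 for other precursors. Experiment medians ranged from -0.14 to -0.014 for receptors, -0.017 to 0.12 for processing and 0.25 to 0.40 for other precursors. Depth limits Vip most, with 64 to 250 reads per library.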

Other observations

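Further precursors of the same list were called between experiments and were chosen here after their values were seen. Crh, the corticotropin-releasing hormone precursor, had 15.6 and 13.9 CPM in TCRb-/- and WT of experiment 1 and 32.4 and 25.4 CPM in experiment 2 (0.92, limma adjusted p 0.00669). Ucn3, the precursor of urocortin 3, which acts on the receptor Crhr2 of the lateral septum, had 2.40 and 2.86 CPM, then 6.85 and 5.86 CPM (1.02, adjusted p 0.00837). Both were thus higher in experiment 2 in either genotype, like Gal and Trh. Cort, the precursor of the somatostatin relative cortistatin, had 2.12 and 1.91 CPM, then 0.400 and 0.447 CPM (-1.08, adjusted p 0.00942). It was lower in the same libraries as Npy and Vip, while Sst overlapped between experiments.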
